A study of Mus musculus with 5 samples.

Results

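The expression of 9 genes of myelin and of the oligodendrocytes that make it (Mbp, Mog, Mag, Mobp, Cnp, Cldn11, Mal, Opalin and Olig1) was followed through RNA purified by BAC-TRAP from mouse midbrain. The genes were taken by name, and each of the 9 matched exactly 1 of the 53700 gene IDs counted. In BAC-TRAP, a transgene for the ribosomal protein L10a with an EGFP tag is switched on by Cre recombinase, and ribosomes that carry the tag are pulled down by an antibody together with the mRNA on them. All mice were C57BL/6, aged 4 months, and had received AAV:THCre, a virus in which the tyrosine hydroxylase (Th) promoter drives Cre, so the tag was aimed at DAergic neurons and not at oligodendrocytes. The control group was L10a;Esrrg WT with 3 libraries (replicates 2, 3 and 4), and the deletion group was L10a;Esrrg Flox with 2 (replicates 2 and 4), in which Cre also cuts out exon 2 of the gene for estrogen-related receptor gamma (Esrrg, ERRγ). Tissue was taken 1 month after deletion, and each library came from pooled midbrains of several mice, so the p-values below measure the spread between pools.

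Myelin is the multilayered membrane that oligodendrocytes wrap around axons of the central nervous system. Its inner faces are zipped together by small basic proteins, its edges are sealed by tight junctions, and its innermost and outermost layers carry adhesion glycoproteins. The genes of these proteins are switched on together as an oligodendrocyte matures, under transcription factors such as SOX10, MYRF and the OLIG proteins. Some myelin mRNAs, among them that of Mbp, are carried out into the cell's processes and translated there. In midbrain, myelinated fibres run through and around the DAergic cell groups, so oligodendrocytes lie in any dissected piece of this tissue.

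The libraries held between 20635855 and 23105058 assigned counts. Esrrg, counted over all its exons, stood at 1763, 1643 and 1726 normalized counts (counts divided by the DESeq2 size factor of the library) in WT and at 1504 and 1170 in Flox, a log2 fold change of -0.35 ± 0.13 (SE; DESeq2 adjusted p = 0.0753). Th was at 10890, 9849 and 12813 normalized counts in WT and at 10224 and 10945 in Flox, and each of the 11 DAergic markers examined was detected in every library. Defining genes of Schwann cells, which myelinate peripheral nerves and also use Mbp, Mag and Mal, were low. Pmp2 had no count in any library, and Prx was at 17.9, 5.10 and 6.73 normalized counts in WT and at 8.65 and 10.9 in Flox.

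RefSeq promoter sequences were at hand for 7 of the 9 genes. The bases from 250 to 51 before the transcription start are shown for 4 of them, Cnp with the highest level per length, Mobp with the widest spread among WT libraries, and Cldn11 and Mal at the upper and lower ends of the Flox to WT order described below. Coordinates are those of RefSeq on GRCm38.p6, and each sequence reads 5′ to 3′ on the gene's own strand. Capitals mark exact matches to ACAAAG or its reverse complement CTTTGT, a form of the core bound by SOX proteins. Other forms of this core were not searched.
Cnp, chr11:100574689-100574888, plus strand: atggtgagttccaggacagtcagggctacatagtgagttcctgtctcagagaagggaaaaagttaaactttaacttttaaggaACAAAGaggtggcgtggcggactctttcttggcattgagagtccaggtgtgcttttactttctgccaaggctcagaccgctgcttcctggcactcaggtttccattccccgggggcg
Mobp, chr9:120149492-120149691, plus strand: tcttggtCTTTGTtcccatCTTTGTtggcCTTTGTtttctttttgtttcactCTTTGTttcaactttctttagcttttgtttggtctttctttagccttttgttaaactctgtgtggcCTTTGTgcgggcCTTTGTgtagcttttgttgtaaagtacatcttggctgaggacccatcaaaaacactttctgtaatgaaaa
Cldn11, chr3:31149670-31149869, plus strand: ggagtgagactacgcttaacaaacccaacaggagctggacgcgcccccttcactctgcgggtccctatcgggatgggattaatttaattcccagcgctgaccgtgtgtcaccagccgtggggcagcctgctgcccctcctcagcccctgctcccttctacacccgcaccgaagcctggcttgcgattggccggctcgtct
Mal, chr2:127656746-127656945, minus strand: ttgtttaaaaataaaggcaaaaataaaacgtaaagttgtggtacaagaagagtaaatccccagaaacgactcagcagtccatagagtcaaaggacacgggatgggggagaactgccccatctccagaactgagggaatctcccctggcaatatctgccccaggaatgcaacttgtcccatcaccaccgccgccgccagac
This form of the SOX core occurred 6 times in the Mobp sequence and 1 time in that of Cnp, and had no match in those of Cldn11 and Mal. Of 32851 RefSeq windows of the same 200 bases, 13.6% held it, and of the 9 windows of the 7 myelin genes 5 did. These were 1 each of Cnp, Mobp and Opalin and 2 of the 3 windows of Mag. The 2 Mag windows overlap and hold the same match, so this form of the core occurred in 4 of the 7 genes. AAGGTCA, the half-site bound by ERR proteins, or its reverse complement TGACCTT occurred in 3.36% of all windows and had no match in the windows of the 7 genes. The palindrome CAGCTG, an E-box, occurred in 10.3% of all windows and in none of the 7 genes, and another E-box, CAGATG or its reverse complement CATCTG, in 12% of all windows and in that of Opalin.

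All 9 genes were counted in every library, with Opalin the lowest at 792 to 1138 normalized counts. Together they made up 0.334%, 0.327% and 0.501% of assigned counts in WT replicates 2, 3 and 4 and 0.356% and 0.419% in Flox replicates 2 and 4. Their summed level over that of Th was 6.67, 7.15 and 8.67 in WT and 7.66 and 8.70 in Flox, and the groups overlapped. No library of unpurified midbrain RNA was analysed here, so whether these transcripts were on tagged ribosomes or came through the purification with them was not tested. In bulk RNA, fewer oligodendrocytes and less RNA per oligodendrocyte cannot be told apart.

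Levels of different genes were compared per length, as TPM, the counts per base of summed exon length scaled to 1 common library total. That length joins all annotated exons of a gene, 8469 bases for Mbp, 6849 for Mobp and 3639 for Cnp, whichever transcripts were present. The order below depends on it, and in normalized counts Mbp was above Cnp (WT means 33546 and 16034). Cnp, a cyclic nucleotide phosphodiesterase of non-compact myelin, was the highest at 645 ± 143 TPM (SD, n = 3 WT), rank 267 of 29210 genes with a count and a length. Mbp, the basic protein that holds the cytoplasmic faces of compact myelin together, followed at 580 ± 156 TPM. Olig1, a basic helix-loop-helix transcription factor of the oligodendrocyte lineage, was at 409 ± 87.7 TPM, and Cldn11, which forms the tight junctions between myelin layers, at 399 ± 71.8 TPM. Mal, a proteolipid of lipid rafts that takes part in the transport of membrane to myelin, was at 328 ± 92.7 TPM. Mobp, a second basic protein of compact myelin, and Mag, an adhesion glycoprotein of the layer next to the axon, were at 204 ± 67.0 and 199 ± 26.0 TPM. Mog, an immunoglobulin-like protein on the outermost layer, was at 154 ± 24.8 TPM (rank 1250). Opalin, a sialylated membrane glycoprotein of central oligodendrocytes, was the lowest at 46.3 ± 7.95 TPM (rank 3602). Of the 8 neighbouring pairs in this order, the WT values overlapped in 7, and only Mog and Opalin were separated. Within single libraries, 5 of the 8 pairs kept their order in all 5 libraries. Cnp was above Mbp in 4 of 5, Olig1 above Cldn11 in 2 of 5 and Mobp above Mag in 1 of 5.

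**Figure D1:**
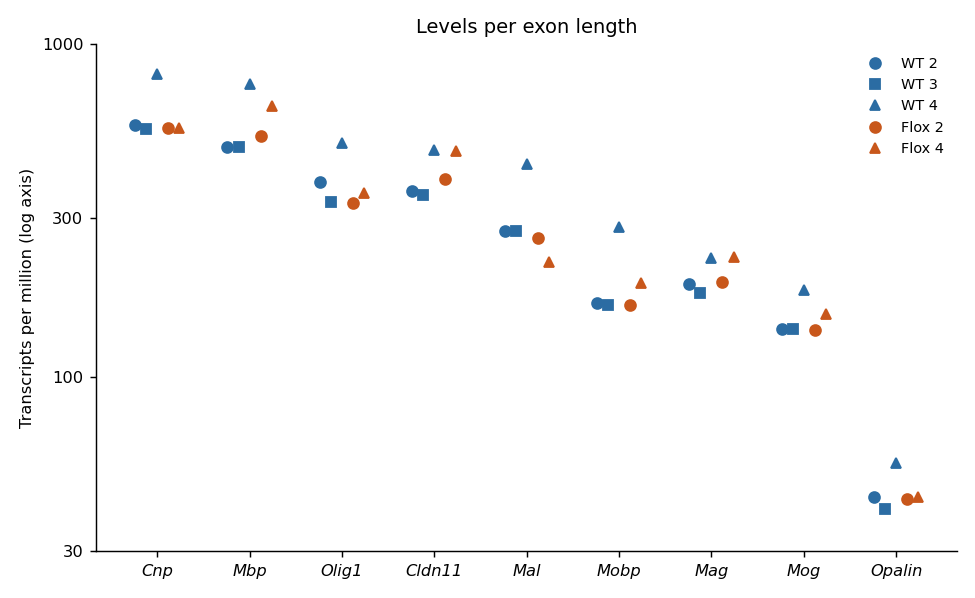
Levels of the 9 genes per exon length, in TPM on a log axis, with 1 point per library (blue, WT; orange, Flox; the marker gives the replicate number). Opalin lies below the other 8 genes in all 5 libraries, while the ranges of the other neighbours overlap.

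No myelin gene passed the test between Flox and WT. Of the 9 genes, 0 passed an adjusted p of 0.05 with a fold change of at least 1.5 (DESeq2 Wald test, two-sided, Benjamini-Hochberg over 15724 genes), where 3.18% of all genes tested did, 1.77% as higher and 1.41% as lower in Flox. At an adjusted p of 0.05 with no fold threshold the count was also 0, against 8.25% of all genes, and at an unadjusted p of 0.05 it was 0, against 20.3%. The edgeR quasi-likelihood test gave 0 at each of these levels too, where 1.08%, 1.42% and 23.0% of all genes passed. The median log2 fold change was 0.016 (5 genes above 0 and 4 below), beside -0.0063 over all genes tested. The 9 genes summed to 84742 ± 22889 normalized counts over the 3 WT libraries (mean ± SD) and to 86766 ± 11959 over the 2 Flox libraries, a ratio of 1.02.

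The basic proteins of compact myelin varied widely among WT libraries. Mbp was at 27947.5, 27761 and 44929 normalized counts in WT replicates 2, 3 and 4 and at 32053 and 42166 in Flox replicates 2 and 4. Both Flox values lay between the lowest and the highest WT values, and the log2 fold change was 0.15 (95% confidence interval -0.45 to 0.74; adjusted p = 0.867). Mobp was at 7713, 7518 and 13466 in WT and at 8044 and 10013 in Flox. Flox again lay inside the WT range, with a log2 fold change of -0.083 (-0.78 to 0.61; adjusted p = 0.941), the widest interval among the 9 genes. The interval reached past 1.5-fold in both directions for Mobp and as a rise in Flox for Mbp, so changes of that size were not excluded.

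The glycoproteins of the myelin surface differed in which library was the highest. Mag was at 5211, 4860 and 6481 normalized counts in WT and at 5588 and 7115 in Flox, with Flox replicate 4 above every WT library and Flox replicate 2 inside their range. Its log2 fold change was 0.20 (95% confidence interval -0.086 to 0.49; adjusted p = 0.489). Mog was at 1603.5, 1586 and 2168 in WT and at 1679 and 2016 in Flox, all Flox values inside the WT range, with a log2 fold change of 0.049 (-0.26 to 0.36; adjusted p = 0.923). Opalin was at 865, 792 and 1138 in WT and at 905 and 979 in Flox, and its log2 fold change of 0.016 was the nearest to 0 (-0.31 to 0.34; adjusted p = 0.978). For these 3 genes the interval excluded a change of 1.5-fold, but for Mag it reached past it without Flox replicate 2 (0.044 to 0.69) and with size factors from the 11 DAergic markers (0.034 to 0.63).

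Cldn11 and Mal stood at opposite ends of the order of fold changes. Cldn11 was at 4570, 4419 and 6290 normalized counts in WT and at 5250 and 6802 in Flox, with a log2 fold change of 0.24 (95% confidence interval -0.079 to 0.56; adjusted p = 0.443). Mal was at 5144, 5116 and 8445 in WT and at 5169 and 4710 in Flox, with a log2 fold change of -0.34 (-0.99 to 0.32; adjusted p = 0.659). Flox replicate 4 was the highest library for Cldn11 and the lowest for Mal, while Flox replicate 2 lay within the WT range for both. The ratio of Mal to Cldn11 counts was 1.13, 1.16 and 1.34 in WT and 0.985 and 0.692 in Flox, so the groups did not overlap in this ratio. This pair was chosen after the values were seen, as the ends of the order, and the ratio was not tested.

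Cnp and Olig1 had Flox means slightly below those of WT. Cnp was at 13998.5, 13519 and 20586 normalized counts in WT and at 14469 and 15508 in Flox, with a log2 fold change of -0.097 (95% confidence interval -0.42 to 0.22; adjusted p = 0.828). Olig1 was at 5608, 4855 and 7636 in WT and at 5152 and 5913 in Flox, with a log2 fold change of -0.13 (-0.45 to 0.20; adjusted p = 0.767). All Flox values of both genes lay inside the WT range, and both intervals excluded a change of 1.5-fold. They no longer did so without Flox replicate 4, for Cnp (-0.84 to 0.54) and for Olig1 (-0.94 to 0.47), or without Flox replicate 2 for Olig1 (-0.79 to 0.73). With size factors from the 11 DAergic markers in place of those from all genes, the values were 0.042 and 0.014, so the direction was not settled. Of these markers, 9 were themselves lower in Flox in the main fit (median log2 fold change -0.15). With them as the reference, the median over all genes tested moved to 0.11, above both values. Of the 9 genes, 0 had both Flox libraries above all WT libraries, a pattern that 19.9% of all genes tested showed, and 0 had both below, against 22.5%.

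**Figure D2:**
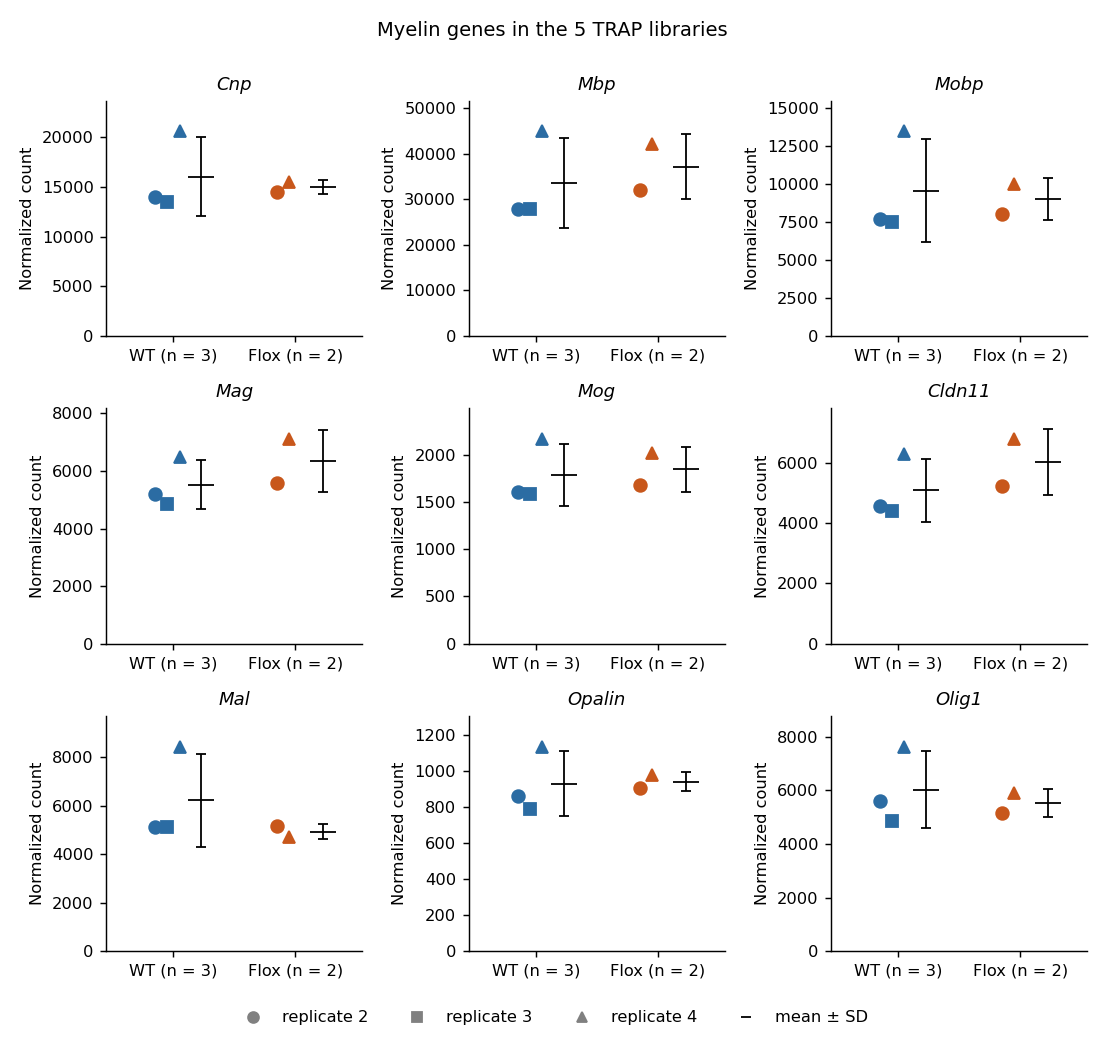
Normalized counts of each gene, from 0 on a linear axis, with 1 point per library (blue, WT; orange, Flox; the marker gives the replicate number) and the mean ± SD of each group in black. WT replicate 4 is the highest of the 5 libraries in 7 of the 9 panels, and in every panel the ranges of the groups overlap.

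Most of the spread within WT came from replicate 4. Its level was between 1.29 times (Mag) and 1.77 times (Mobp) the mean of WT replicates 2 and 3, with a median of 1.46 over the 9 genes, beside 1.00 over all genes tested. It was at least 1.2 times that mean in 9 of the 9 genes, where 14.5% of all genes were. WT replicate 4 was the highest of the 5 libraries in 7 genes, against 25.7% of all genes, and Flox replicate 4 in the other two, Mag and Cldn11, against 29.5%. WT replicates 2 and 3 differed little from each other, and 1 of them was the lowest library for 8 of the 9 genes, with Mal as the exception. Flox replicate 4 exceeded Flox replicate 2 in 8 of the 9 genes, Mal again being the exception.

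The directions and the count of genes at an adjusted p of 0.05 changed with that library, and the directions with others too. With WT replicate 4 left out, 8 of the 9 log2 fold changes were above 0, with a median of 0.21 beside -0.025 over all genes tested, and the summed level in Flox was 1.21 times that in WT. Mbp (0.41 ± 0.13, SE; adjusted p = 0.0241) and Cldn11 (0.42 ± 0.13; adjusted p = 0.0255) then rose at an adjusted p of 0.05, which 8.86% of the 9819 genes tested without it passed, 4.35% as higher in Flox. Neither reached 1.5-fold. Mag was at 0.33 (adjusted p = 0.0825) and Mobp at 0.24 (adjusted p = 0.21), and Mal alone stayed below 0, at -0.058 (adjusted p = 0.799). No other library, when left out, took any of the 9 genes past an adjusted p of 0.05. The median was -0.037 without WT replicate 2, -0.090 without WT replicate 3 and -0.093 without Flox replicate 4, with 3, 3 and 2 of the 9 values above 0. Without Flox replicate 2 it was 0.071, with 6 of the 9 above 0.

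**Figure D3:**
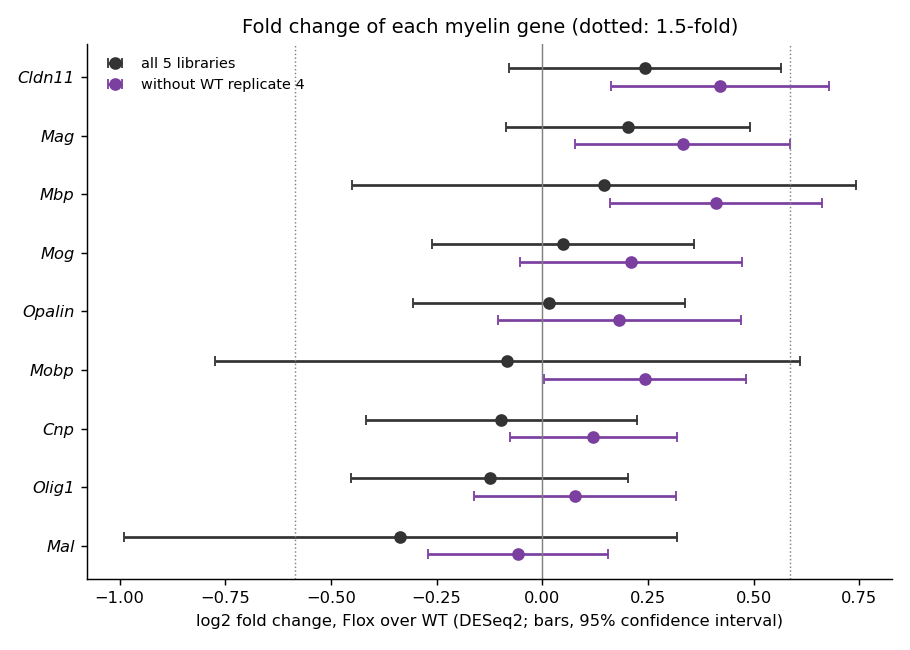
Log2 fold change of each gene, Flox over WT, with its 95% confidence interval (DESeq2), from all 5 libraries (black) and without WT replicate 4 (purple). The dotted lines mark 1.5-fold. With all libraries every interval holds 0, and without WT replicate 4 each estimate lies farther to the right.

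Other gene groups moved with WT replicate 4 to different degrees, and their part in the myelin values was not tested. Of the 9 astrocyte markers, 9 were at least 1.2 times the mean of WT replicates 2 and 3 in that library, with a median ratio of 1.35, and 0 passed the test between Flox and WT. Of the 11 DAergic markers, 4 reached that ratio, with a median of 1.16. None of the 3 GABAergic markers reached it (median 1.01). The 12 microglial markers ran the other way, with a median of 0.55 times the same mean in WT replicate 4, 2.0 times in Flox replicate 2 and 4.72 times in Flox replicate 4. Their summed level was 1886 to 3677 normalized counts in WT, 6578 in Flox replicate 2 and 14703 in Flox replicate 4. Between Flox and WT, 10 of the 12 were called higher at 1.5-fold and an adjusted p of 0.05 (C1qa, C1qb, C1qc, Ctss, Tyrobp, Trem2, Aif1, Cx3cr1, Tmem119 and Csf1r), where 1.77% of all genes were. The count of microglial markers called was 3 of 12 without WT replicate 2, where 0.91% of all genes were called higher. It was 5 of the 8 with an adjusted p without WT replicate 4 (0.866% of all genes) and 0 of the 7 with one without Flox replicate 4 (0.137%). Endothelial markers were low, 128 to 288 normalized counts in sum in WT and 300 and 770 in Flox, with 3 of 8 called higher (Flt1, Cldn5 and Slco1a4). Without WT replicate 2, 1 of these 8 was called (0.91% of all genes called higher), and without WT replicate 3, 3 of the 7 with an adjusted p (1.42%). With edgeR 0 were called (0.607%), while 6 passed an unadjusted p of 0.05, as 23.0% of all genes did. Without WT replicate 4 or Flox replicate 4 no adjusted p was given for any of the 8.

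**Figure D4:**
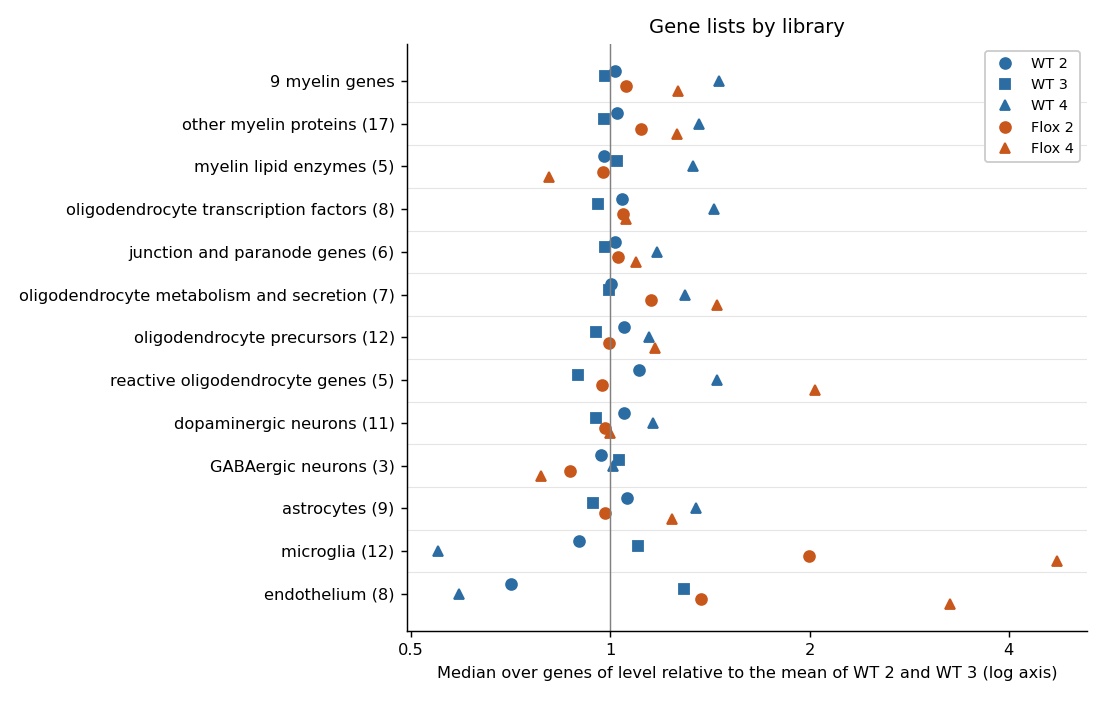
Median over the genes of each list of the level in a library relative to the mean of WT replicates 2 and 3 (log axis; blue, WT; orange, Flox; number of genes in brackets). For the 9 myelin genes WT replicate 4 lies at 1.46 and Flox replicate 4 at 1.26, while for microglia these libraries lie at 0.55 and 4.72.

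Among the 9 genes, Mal lay farthest from their mean profile over the libraries. The distance of a gene was the root mean square difference between its centred log2 profile over the 5 libraries and the mean profile of the 9, which includes the gene itself. It was 0.053 for Mog, 0.056 for Opalin, 0.060 for Cnp and 0.076 for Olig1. Mobp and Mbp were both at 0.10, Mag and Cldn11 both at 0.12, and Mal at 0.20. As shares of the summed counts of the 9 genes, Mal lay at 7.08% to 7.60% in WT and was at 6.60% and 4.95% in Flox. Mbp was at 38.5% to 40.4% in WT and at 40.9% and 44.3% in Flox. The shares of Cnp, Mobp and Olig1 also lay below all WT values in both Flox libraries, and that of Cldn11 above them. Those of Mag, Mog and Opalin overlapped between the groups. Some gaps were small, as for Cnp (18.48% in Flox replicate 2, 18.52% in WT replicate 4) and Mobp (10.52% in Flox replicate 4, 10.62% in WT replicate 2). In normalized counts 0 of the 9 genes separated the groups, where 19.9% of all genes tested did as higher and 22.5% as lower in Flox. Shares of 1 sum are tied to each other and have no such background, and they were not tested.

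Among 7064 other genes with a mean of at least 500 normalized counts, the 5 with the smallest distance were Zcchc24 (0.025), Tmem88b (0.031), Gatm (0.037), Psat1 (0.044) and Qk (0.044). Tmem88b encodes a membrane protein found in oligodendrocytes, Gatm an enzyme of creatine synthesis, Psat1 an enzyme of serine synthesis, and Qk (quaking) an RNA-binding protein known to bind myelin mRNAs. Qk was at 4331, 4084 and 6142 normalized counts in WT and at 4166 and 5177 in Flox, and Gatm at 2973, 2926 and 4581 in WT and 3107 and 3631 in Flox. Both thus had WT replicate 4 as the highest library and Flox replicate 4 as the next, as most of the 9 genes did. Of the 42 other oligodendrocyte genes ranked, 10 were among the first 100, Sox8, Tspan2, Ermn, Il33, Olig2 and Trf among them. The median distance of the 42 was 0.189, beside 0.249 over all genes ranked. With 5 libraries these distances describe a likeness and carry no test.

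The other genes of myelin and of the oligodendrocyte lineage were examined as 7 lists with 60 genes in all. Of these 60 genes, 2 were called higher at 1.5-fold and 0 lower, close to the 3.18% called in either direction over all genes, and the median log2 fold change was 0.020. In 39 of them WT replicate 4 was at least 1.2 times the mean of WT replicates 2 and 3, with a median ratio of 1.30, where 14.5% of all genes were.

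Of 17 other myelin proteins, 1 was called higher, Cd9, and 0 lower, with a median log2 fold change of 0.12. Cd9, a tetraspanin of the cell surface that is also made by microglia and other cells, was at 1265, 1170 and 1387 normalized counts in WT and at 1495 and 2609 in Flox, a log2 fold change of 0.69 ± 0.19 (adjusted p = 0.01). Flox replicate 4 lay far above the other libraries, and without it the value was 0.23 (adjusted p = 0.844). The call was also lost without any 1 of the WT libraries (adjusted p between 0.0629 and 0.233), with log2 fold changes of 0.63 to 0.75, and with edgeR (0.69; adjusted p = 0.0846). Plekhb1 (0.22; adjusted p = 0.78) and Cryab (0.20; adjusted p = 0.544) did not pass the test.

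Of the 5 enzymes of myelin lipids, 0 were called at 1.5-fold. Their median log2 fold change was -0.25, and 4 of the 5 values were below 0. Ugt8a, which makes galactocerebroside, fell at an adjusted p of 0.05 without reaching 1.5-fold. It was at 717, 795 and 1026 normalized counts in WT and at 627 and 524 in Flox. Both Flox values lay below all WT values, as in 22.5% of all genes tested. Ugt8a had a log2 fold change of -0.56 ± 0.17 (adjusted p = 0.0258). It did not pass with edgeR (adjusted p = 0.0879), with size factors from the DAergic markers (-0.42; adjusted p = 0.229) or without WT replicate 3 (-0.60; adjusted p = 0.068), WT replicate 4 (-0.40; adjusted p = 0.116) or Flox replicate 4 (-0.44; adjusted p = 0.597). Without WT replicate 2 (-0.66; adjusted p = 0.0383) or Flox replicate 2 (-0.69; adjusted p = 0.0214) it was called at 1.5-fold. Fa2h, which hydroxylates the fatty acids of these lipids, was at -0.31 (adjusted p = 0.271) and Cers2, a ceramide synthase for very long chains, at -0.25 (adjusted p = 0.364).

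Of the 8 transcription factors of the lineage, 0 were called, with a median of -0.16. Sox10 was at 1458, 1352 and 2065 normalized counts in WT and at 1257 and 1284 in Flox (log2 fold change -0.35; adjusted p = 0.209). Olig2 was at -0.14 (adjusted p = 0.719) and Nkx6-2 at 0.17 (adjusted p = 0.518). Of the 6 junction and paranode genes, 0 were called, with a median of -0.079. Nfasc (-0.21; adjusted p = 0.154) and Cntn2 (-0.19; adjusted p = 0.25), which neurons also express, had both Flox values below all WT values, as 22.5% of all genes did. Gjc3, a gap junction protein, was at -0.16 (adjusted p = 0.691).

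Of 7 genes of oligodendrocyte metabolism and secretion, 0 were called at 1.5-fold, with a median of 0.26. Enpp2 (autotaxin), named here because it alone passed an adjusted p of 0.05, was at 3660, 3631 and 4200 normalized counts in WT and at 4460 and 5433 in Flox (0.37 ± 0.12; adjusted p = 0.0402). It did not pass with edgeR (adjusted p = 0.0933) or without WT replicate 2 (0.34; adjusted p = 0.301), WT replicate 3 (0.33; adjusted p = 0.222) or Flox replicate 4 (0.22; adjusted p = 0.794). Apod, a lipocalin, was at 5598, 5164 and 7030 in WT and at 6312 and 13300 in Flox, with Flox replicate 4 far from the rest (0.73 ± 0.42; adjusted p = 0.337). Trf, the transferrin gene, was at -0.045 (adjusted p = 0.921) and Car2, carbonic anhydrase, at 0.30 (adjusted p = 0.156). Of 12 genes of precursors and newly formed oligodendrocytes, 0 were called, with a median of 0.024. C1ql1 was at 0.0024 (adjusted p = 0.996), Lhfpl3 at -0.36 (adjusted p = 0.0557) and Ptprz1 at 0.26 (adjusted p = 0.446).

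Of 5 genes known to rise in oligodendrocytes in disease models, 1 was called higher, with a median of 0.38, which was -0.13 without Flox replicate 4. Klk6, a secreted protease of the kallikrein family, was at 621, 468 and 398 normalized counts in WT and at 863 and 1487 in Flox. The log2 fold change was 1.25 ± 0.38 (adjusted p = 0.0184). Both Flox values lay above all WT values, as in 19.9% of all genes tested. Unlike the 9 myelin genes, Klk6 was lowest in WT replicate 4. The call was lost without WT replicate 3 (1.21; adjusted p = 0.17), WT replicate 4 (1.11; adjusted p = 0.0818) or Flox replicate 4 (0.80; adjusted p = 0.0745), with the fold change still past 1.5-fold in each. C4b, a complement component, was at 3770, 3050 and 3689 in WT and at 3217 and 5889 in Flox (0.38; adjusted p = 0.608), and the groups overlapped. Serpina3n (0.38; adjusted p = 0.76) and Il33 (-0.067; adjusted p = 0.905) also overlapped between groups. C4b and Serpina3n are made by astrocytes and other glia too, so their counts do not belong to oligodendrocytes alone.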

How the data were processed

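Poly(A)-selected, non-strand-specific RNA-seq of BAC-TRAP RNA gave 1 table of counts. The authors trimmed reads with Trim Galore, aligned them with STAR and deposited raw read counts per gene from HTSeq-count. Their methods name GRCm38 with GENCODE M24 and the submitters' processing notes GRCm39, so no coordinate of the counted genes is given. Per library, 12.6% to 14.3% of reads were assigned to no gene and left out. Strand was not used, so overlapping and antisense genes cannot be told apart. Names were matched for 97.0% of IDs through GENCODE M21, which also gave exon lengths for TPM. A count of 0 allows up to 0.130 to 0.145 CPM (3 counts), for counting error only.

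Counts were analysed with DESeq2 1.42.0 in R 4.3.3, the study's tool and thresholds (1.5-fold, adjusted p of 0.05), after tests on simulated data. edgeR 4.0.16, TMM library sizes, a low-count filter (10 counts in 2 libraries), a replicate block, leaving out each library, and sums as CPM or without Mbp were alternatives. Size factors from the 11 DAergic markers and a sum without both libraries numbered 4 were added after seeing the data. An exact permutation of 3 against 2 libraries cannot reach 0.05, so none was run. The members and lists were chosen with earlier results of these data known. Named were the 9 genes, genes called in another list, the 3 with the highest mean count in each oligodendrocyte list, and the 5 most alike in profile. Some genes of these lists are counted but not reported here by name.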

Additional observations from a re-analysis of the deposited data

How the results depend on the processing

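The 9 myelin genes had 0 calls at 1.5-fold under every alternative run. Those at an adjusted p of 0.05 numbered 0 to 2 when 1 library was left out, and 0 under the other alternatives. Calls among the 60 other oligodendrocyte genes went from 2 to 1 with edgeR (Klk6; 1.08% of all genes called), to 3 with size factors from the DAergic markers (2.51%), to 0 with the replicate block (1.97%), and from 0 to 5 when 1 library was left out. The 5, without Flox replicate 2 (6.09%), were Apod, C4b, Cd9, Klk6 and Ugt8a, and the count was 0 without Flox replicate 4 (0.511%) or WT replicate 3 (2.67%). Microglial calls, 10 of 12, were 7 with edgeR, 6 with size factors from the DAergic markers and 3 with the replicate block. Leaving out 1 library gave log2 fold changes from -0.069 to 0.41 for Mbp, -0.093 to 0.21 for Mog, -0.25 to 0.24 for Mobp, -0.21 to 0.12 for Cnp, -0.090 to 0.18 for Opalin and -0.26 to 0.077 for Olig1, so these 6 crossed 0. Cldn11 (0.040 to 0.42) and Mag (0.015 to 0.37) stayed above 0 and Mal (-0.46 to -0.058) below it. With size factors from the DAergic markers the median over all genes tested moved to 0.11, and Mobp (0.065), Cnp (0.042) and Olig1 (0.014) turned above 0 yet remained below that median. The summed level in Flox was 0.924 to 1.21 times that in WT when 1 library was left out. The cause of these changes was not tested.

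The labels share only the replicate numbers 2 and 4, and nothing says that they pair the pools. Deviations from the group means correlated across 7073 genes at 0.186 for the libraries numbered 2 and 0.157 for those numbered 4. With 2 Flox libraries the crossed values are these with the sign turned, so they add nothing. With the replicate block Mog (-0.020) and Opalin (-0.076) turned below 0. Cd9 was at 0.58 (adjusted p = 0.049), just under 1.5-fold, Klk6 at 1.19 (adjusted p = 0.407), Ugt8a at -0.58 (adjusted p = 0.147) and Enpp2 at 0.33 (adjusted p = 0.137).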
